A study of Homo sapiens with 8 samples.

Results

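ZMYND8 overexpression was compared with parental cells in 4 of the 8 libraries of the study, 2 per group, in SK-N-SH, an established human neuroblastoma line. The libraries were chosen by their labels alone, and every gene in the count table was used. Cells of the overexpression group carried FLAG-tagged ZMYND8 in the doxycycline-inducible lentiviral vector pInducer20 and had been selected with G418 after transduction. The parental cells were not transduced. Both groups received all-trans retinoic acid (ATRA) at 10 μM for 24 h in DMEM/F12 with reduced serum, and both received doxycycline (Dox), whose dose was not given in the sources used here. Effects of ZMYND8 therefore cannot be told apart from those of transduction, of selection or of the transduced line itself. The KD control and ZMYND8 KD groups, 2 libraries each with ATRA, formed a separate experiment with its own controls and serve here only as a background of levels.

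ZMYND8 is a chromatin reader that binds acetylated and methylated histone tails and recruits chromatin regulators. ATRA acts through nuclear receptors of the RAR and RXR families, which sit on retinoic acid response elements, and it drives neuroblastoma cells towards neuron-like forms. SK-N-SH is known as a mixed line. It holds neuroblast-like cells, in which transcription factors of the sympathetic nervous system such as HAND2 and GATA2 are active, and substrate-adherent mesenchymal-like cells, in which PRRX1, AP-1 and YAP/TAZ factors are active and matrix genes are expressed. Cells can pass from either form to the other. In bulk RNA, fewer cells of a type and less RNA per cell cannot be told apart.

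The parental libraries held 44593697 and 54320055 reads assigned to genes, and the overexpression libraries 47302263 and 38316523. ZMYND8 (ENSG00000101040, chr20:47209214-47356889 on GRCh38, minus strand) was counted at 3467 and 3353 normalized reads in parental cells and at 197646 and 199767 in the overexpression group, a log2 fold change of 5.86 (SE 0.060, adjusted p = 5.04e-12). Reads of the transgene and of the endogenous gene were not separated. Normalized counts are reads scaled with TMM factors over these 4 libraries, and fold changes and adjusted p-values come from edgeR. A gene was called higher or lower if its adjusted p was under 0.05, it changed 2-fold or more (1 or more on the log2 scale) and its normalized counts averaged over 20. The coefficient of variation between replicates was 0.0565. The libraries of a group are described as biological replicates, and p-values measure only the spread between these 2 libraries per group. Of 20835 genes tested, 2450 were called higher, which is 11.8% of them, and 1426 were called lower, which is 6.84%. Without the threshold on fold change, 26.6% of the tested genes were higher and 27.8% lower. When libraries were scaled by their total counts alone, the median log2 fold change of genes with a mean above 20 moved from -0.01 to 0.25 and the share of higher genes among the calls from 63.2% to 75.7%, so changes below are relative to the TMM scale.

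Both forms of the line were represented in the counts. Of the neuroblast-like markers, PHOX2A, HAND2, ISL1 and GATA3 had more than 1000 normalized reads in every library, whereas TH, the tyrosine hydroxylase gene of catecholamine synthesis, had at most 5 reads in any of the 4 libraries and was not tested. The mesenchymal-like markers FN1, VIM, CD44 and COL1A1 were abundant in all 4. Markers of other cell types were counted as well. The 9 blood cell markers summed to 1.13 to 1.86 CPM (reads scaled to a common library size with TMM over all 8 libraries) in the 4 libraries, 3 of them were at 0 in both parental and 3 in both overexpression libraries, and none was called by edgeR or DESeq2, with 1 higher at an unadjusted p below 0.05. The blood cell markers tested were CD14 and LAPTM5, with log2 fold changes of 1.30 and 0.36, and PTPRC, the common leukocyte gene, was not counted in the overexpression libraries. Of 9 epithelial markers tested, 4 keratins were called lower, among them KRT8 (log2 fold change -1.81), KRT19 (-2.31) and KRT7 (-1.45). The 15 epithelial markers summed to 478 and 482 CPM in parental and 224 and 169 CPM in overexpression libraries. Of 8 endothelial markers tested, 2 were called higher and 3 lower. The melanocyte list had 3 members tested, of which PMEL alone was called, higher (log2 fold change 1.34, the list median). The highest log2 fold change in that list, 4.35, was of a member that was not called. The part of such cells in the results was not tested.

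The overexpression libraries stood apart from the other 6 over the long arm of chromosome 1. Over 555 protein-coding genes of that arm with a mean above 100, the median log2 fold change against parental cells was -0.53, and 83.4% of the genes were below 0. Elsewhere the median was -0.05, with 55.0% below 0 over 11549 genes. Chromosome 19 had the highest median of any chromosome, 0.17, with 31.4% of 889 genes below 0. In windows of about 40 neighbouring genes, the 14 windows of the arm had medians from -0.79 to -0.32, and the 278 other windows had medians from -0.43 to 0.52. Relative to the KD control libraries, the arm's median was -0.42 and -0.44 in the overexpression libraries, 0.14 and 0.17 in the parental and 0.01 in each of the ZMYND8 KD libraries. For chromosome 19 the same values were 0.23 and 0.21, 0.05 and 0.08, and -0.04 and -0.07. DNA copy number was not measured here. Of 909 tested genes of the arm, 138 were called lower and 82 higher, and without the arm 2368 genes were called higher and 1288 lower in all. Genes named below that lie on this arm are marked as such, and unnamed members of the lists can lie on it too.

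**Figure D1:**
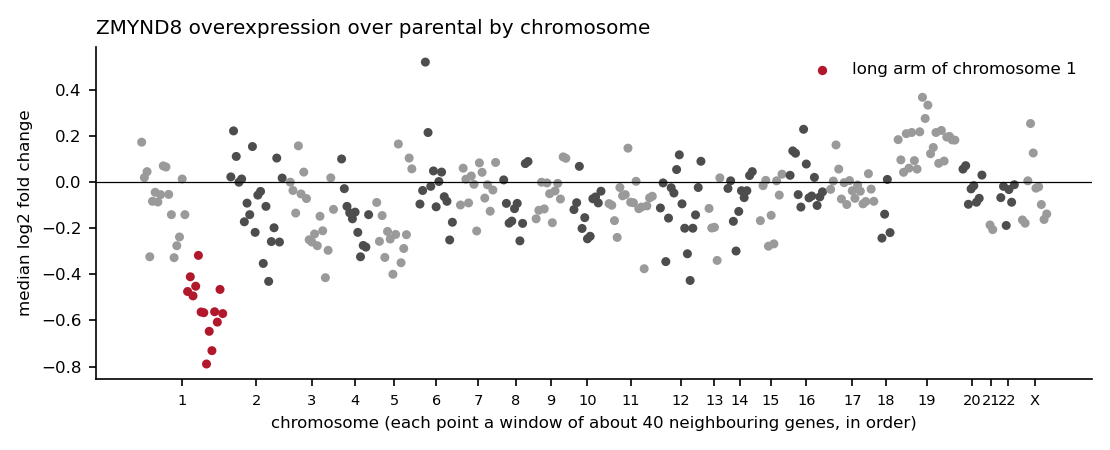
Median log2 fold change of ZMYND8 overexpression over parental cells (vertical axis) in windows of about 40 neighbouring protein-coding genes, in order along each chromosome (horizontal axis). The 14 windows of the long arm of chromosome 1, in red, lie between -0.79 and -0.32, while the other windows lie between -0.43 and 0.52.

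Genes were grouped into lists by function, and members were counted by direction. In the plot of list members, neuronal lists lie on the side of higher values and lists of matrix, adhesion and contractile genes on the side of lower values. The median log2 fold change of all tested genes was 0.03. Counts of called members stand beside the shares of all tested genes, 11.8% higher and 6.84% lower.

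**Figure D2:**
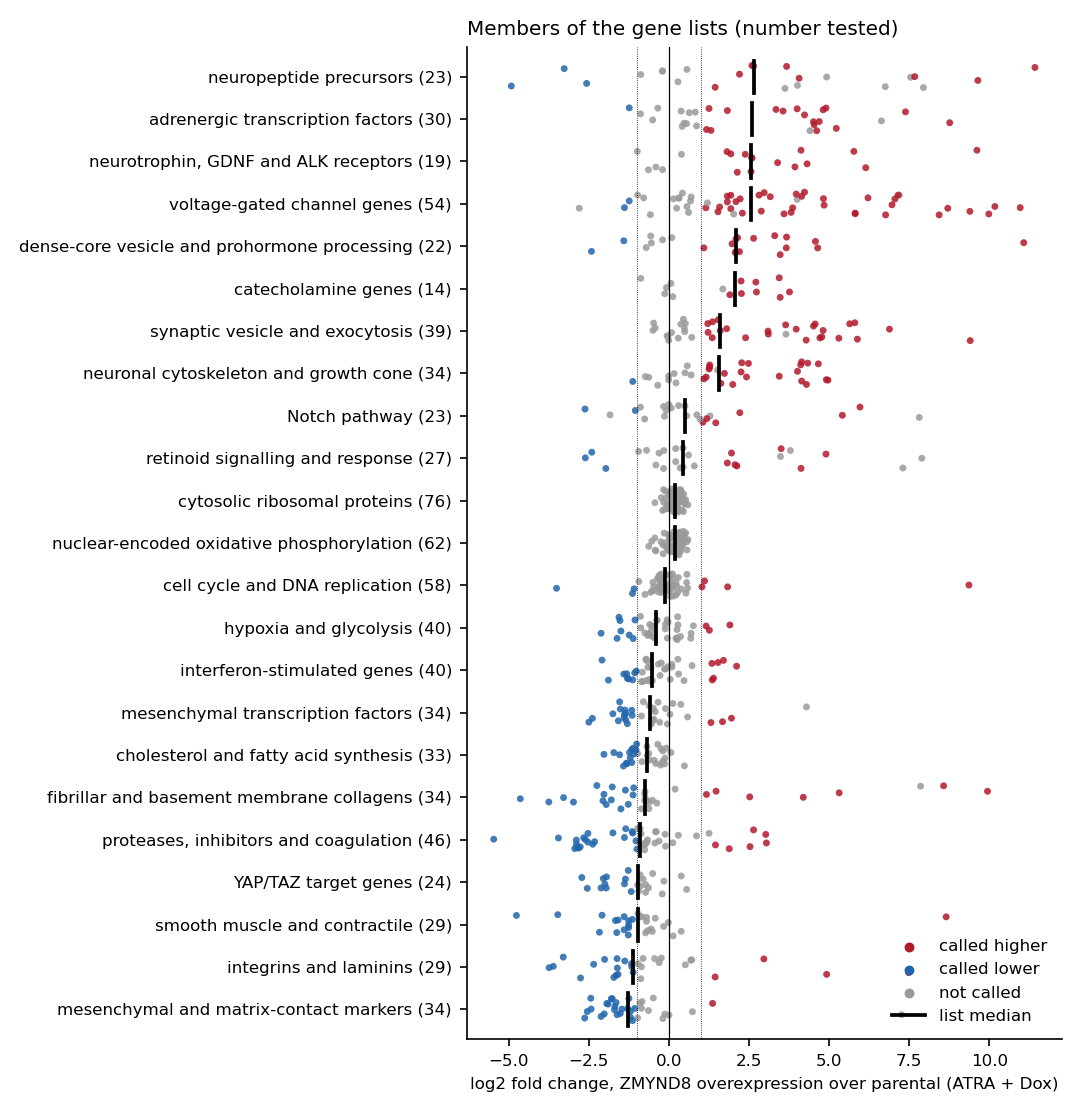
Log2 fold change of ZMYND8 overexpression over parental cells (horizontal axis) for each tested member (point) of 23 gene lists (rows, with the number tested), coloured by call, with the list median as a black bar. Medians run from 2.64 for neuropeptide precursors, of which 5 tested had no parental read, to -1.27 for mesenchymal and matrix-contact markers. No cytosolic ribosomal protein gene or nuclear-encoded oxidative phosphorylation gene was called.

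Transcription factors of the adrenergic, neuroblast-like state were higher in ZMYND8 overexpression. Of 32 listed, 30 were tested, 17 (56.7%) were called higher and 1 lower. The list had a median log2 fold change of 2.58 (1.92 once the member without a parental count was put at its lower bound). It was 1.61 without the first overexpression library and 3.36 without the first parental library, the lowest and highest values with 1 library left out. GATA2 (chr3:128479427-128493201), a zinc finger factor of sympathetic neurons, had 1069 and 1053 normalized reads in parental cells against 16622 and 17322 in overexpression, a log2 fold change of 4.0 (SE 0.056, adjusted p = 1.72e-11). HAND2, a basic helix-loop-helix factor of the same cells, had 5244 and 5269 reads against 18000 and 19001, a log2 fold change of 1.82, and 24.1% of its exon bases overlap another gene. LMO3, a LIM-domain cofactor, had 5.61 and 2.78 reads against 674 and 725 (log2 fold change 7.38). INSM2, a zinc finger gene of neuroendocrine cells, had 1 raw read in each parental library and 461 and 527 in overexpression, a ratio of 478 with an exact 95% counting interval of 132 to 3957. The groups did not overlap for these genes, which was also so for 80.3% of all tested genes. ISL1 (log2 fold change 0.41), PHOX2A (0.63) and GATA3 (0.82) passed the adjusted p threshold but not the 2-fold threshold, and TBX2, a T-box factor, was the member called lower (13716 and 14986 against 6248 and 5930, log2 fold change -1.24, or -0.98 with total counts alone). GATA2 and MYCN were named after their values were seen. MYCN, the oncogene amplified in many neuroblastomas but not in this line, rose from 5.61 and 0.928 to 83.3 and 63.4 normalized reads.

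Genes for the synthesis, transport and breakdown of catecholamines followed. Of 16 listed, 14 were tested, 8 (57.1%) were called higher and none lower by edgeR or DESeq2 (1 lower at an unadjusted p below 0.05), with a median log2 fold change of 2.07. DBH, which converts dopamine to noradrenaline, had 292 and 315 normalized reads in parental cells against 1431 and 1455 in overexpression (log2 fold change 2.25, SE 0.081, adjusted p = 3.30e-09). MAOB, a monoamine oxidase, had 161 and 158 against 1636 and 1822 (log2 fold change 3.44). SLC18A1, the vesicular monoamine transporter of chromaffin cells, had 13.5 and 13.9 against 151 and 155 (3.47). PNMT, which methylates noradrenaline to adrenaline, had 1.12 and 5.57 against 51.0 and 48.1 reads. Its call was lost when either overexpression library was left out, although its log2 fold change, 3.76 with all 4, was then 3.72 and 3.81.

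Neuropeptide precursor genes moved in both directions, with 9 of 23 tested members called higher and 3 lower. Without the threshold on fold change, 8 passed in neither direction. Many had few reads. The median parental level was -1.06 in log2 CPM, and 5 tested members had no parental read. CALCA (chr11:14966668-14972351), which encodes calcitonin and CGRP, had no read in either parental library and 374 and 311 normalized reads in overexpression, at least 114-fold higher against a floor of 3 reads per library. SST, the somatostatin gene, was likewise at 0 in parental cells and at 107 and 92.9, at least 33-fold higher. CALCB rose from 7.86 and 3.71 to 1171 and 1150 reads. NTS, the neurotensin gene, went the other way, with 1110 and 1131 reads in parental cells against 34.0 and 40.4 (log2 fold change -4.92, SE 0.13, adjusted p = 3.11e-10). GRP, the gastrin-releasing peptide gene, fell from 41.5 and 37.1 to 3.58 and 4.37. Leaving out either parental library lost this call, with log2 fold changes of -3.21 and -3.36 against -3.27 with all 4. VIP fell from 4597 and 4629 to 836 and 709 (VIP shares 20.6% of its exon bases with another gene).

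The machinery that packs and cleaves these peptides was higher for 15 of 22 genes tested and lower for 2, with a median log2 fold change of 2.09. VGF, a granin-like secreted protein, rose by the third largest number of reads of all genes, from 18368 and 21033 to 87220 and 93350 (log2 fold change 2.20, SE 0.070, adjusted p = 1.46e-09). PCSK2, a prohormone convertase, was not counted in parental cells and had 279 and 258 normalized reads in overexpression, at least 89-fold higher. SCG3, a granin that sorts cargo into dense-core vesicles, had 134 and 130 against 3086 and 3169 (log2 fold change 4.57). PCSK1 had 3 reads and 0 in parental against 39 and 44 raw reads in overexpression. Without either overexpression library its call was lost, although its log2 fold change, 4.64 with all 4, was then 4.86 and 4.41. The members called lower were RAB27B, a small GTPase of vesicle docking (2776 and 2672 against 508 and 512, log2 fold change -2.42), and PAM, which amidates peptides (48255 and 49121 against 17715 and 18864, log2 fold change -1.41).

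Synaptic vesicle and exocytosis genes were called higher for 24 of 39 tested (61.5%) and lower for none by edgeR or DESeq2 (3 lower at an unadjusted p below 0.05), with a median log2 fold change of 1.60. CPLX1, a complexin that clamps vesicle fusion, had 57.2 and 53.8 normalized reads in parental cells against 3159 and 3401 in overexpression (log2 fold change 5.88, SE 0.093, adjusted p = 2.93e-11). SV2B, a vesicle glycoprotein gene, had 1 read in all in parental cells and 83 and 68 raw reads in overexpression. SLC32A1, the vesicular GABA transporter, had none in parental cells and 55.5 and 115 normalized reads, at least 28-fold higher, and its call was lost without the second overexpression library. Of 34 tested genes of the neuronal cytoskeleton and growth cone, 22 were called higher and 1 lower. KIF1A, a kinesin that carries vesicle precursors, had 363 and 404 against 11235 and 11903 reads (log2 fold change 4.91). DPYSL5, a collapsin response mediator, had 241 and 239 against 7054 and 7913 (4.96), and NEFL, the light neurofilament subunit, 368 and 336 against 8607 and 9172 (4.66). MAP1B was the exception, at 114140 and 108135 against 54038 and 47595 (log2 fold change -1.13), and with total counts alone as the scale its value was -0.87, below the 2-fold threshold. GAP43 and STMN2, growth cone markers of the neuroblast-like form, had log2 fold changes of 2.42 and 4.01.

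Voltage-gated channel genes were among the groups with the most members called higher, 35 of 54 tested (64.8%), with 2 lower and a median log2 fold change of 2.55. The potassium channel genes KCNH7 and KCNB2 and the pacemaker channel gene HCN4 had no read in either parental library. They had 247 and 250, 132 and 157, and 113 and 140 normalized reads in overexpression, which is at least 82-fold, 48-fold and 42-fold higher. CACNA1H, a T-type calcium channel gene, had 2 parental reads in all against 419 and 379 raw reads, a ratio of 386 with a 95% counting interval of 107 to 3197. CACNA1A, the P/Q-type channel gene, fell from 612 and 551 to 213 and 231 (log2 fold change -1.39), and KCNQ5 from 1411 and 1395 to 629 and 555 (-1.24, or -0.99 with total counts alone). Among neurotrophin, GDNF and ALK receptor genes, 14 of 19 tested (73.7%) were called higher and none lower by edgeR, with 1 lower by DESeq2 and 3 lower at an unadjusted p below 0.05. RET (chr10:43077064-43130351), the GDNF receptor tyrosine kinase, rose from 5763 and 6318 to 97753 and 112166 normalized reads (log2 fold change 4.12, SE 0.080, adjusted p = 5.95e-11). NTRK2, the BDNF receptor gene, rose from 106 and 122 to 5915 and 6544 (log2 fold change 5.77). GFRA3, a RET coreceptor gene, had 2.24 and 4.64 reads against 249 and 271, and SORCS3, a sorting receptor gene, had none against 90.5 and 105, at least 32-fold higher.

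Neuronal RNA-binding genes included 14 of 26 tested that were called higher and 2 that were lower. RBFOX1, a splicing factor of mature neurons, had 0 reads in both parental libraries and 343 and 347 normalized reads in overexpression, at least 115-fold higher. CELF2 had 3 raw reads in all in parental cells and 509 and 428 in overexpression, and ELAVL3, a neuronal RNA stabiliser, rose from 136 and 175 to 5376 and 5427 normalized reads (log2 fold change 5.11). MBNL2 and MBNL1, splicing factors that favour adult exons in muscle and elsewhere, were lower, with log2 fold changes of -1.85 and -1.10. The MBNL1 call was lost with total counts alone (-0.85), without the second overexpression library (-0.99) and with length and GC trends taken out (-0.97).

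REST is the repressor that keeps neuronal genes silent in other cells by binding a specific DNA element and recruiting corepressors. REST itself had 7335 and 7053 normalized reads in parental cells against 4838 and 4589 in overexpression, a log2 fold change of -0.61 (SE 0.051, adjusted p = 2.29e-06) that did not reach the 2-fold threshold. Of 14 tested REST and corepressor genes, RCOR2 alone was called, from 75.2 and 116 to 1184 and 1356 reads (log2 fold change 3.71). The conserved core of the element, read as CAGCACC, any 2 bases, then GGACAG on either strand, was searched in RefSeq promoter windows of 300 bases (250 before to 50 after a start, GRCh38.p14), of which 35116 were at hand. It stood in 18 of them (0.0513%), in 11 of 18788 windows of tested genes (0.0585%), in 9 of 2414 windows of genes called higher (0.373%) and in 0 of 1508 windows of genes called lower. The 9 windows belong to 7 genes, GRIA2, FAM163B, GAD2, OGDHL, RPH3A, TTC9B and SYN1, which are named for the match. Among tested genes, BSX and UCN also held it and were not called (log2 fold changes 1.91 and 0.56). Stretches of 4 of these promoters are shown with the core in capitals to let the element be read in place, with flanking bases as far as the window allows. SYN1 is chrX:47620024-47620107 on the minus strand, GRIA2 chr4:157220369-157220456 on the plus strand, GAD2 chr10:26216243-26216357 on the plus strand and TTC9B chr19:40218335-40218416 on the minus strand.
SYN1: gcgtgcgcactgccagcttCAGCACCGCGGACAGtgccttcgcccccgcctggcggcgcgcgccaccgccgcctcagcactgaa
GRIA2: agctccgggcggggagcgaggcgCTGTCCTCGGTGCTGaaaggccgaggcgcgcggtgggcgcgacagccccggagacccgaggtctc
GAD2: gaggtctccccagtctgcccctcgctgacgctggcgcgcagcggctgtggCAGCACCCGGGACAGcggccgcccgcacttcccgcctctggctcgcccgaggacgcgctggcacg
TTC9B: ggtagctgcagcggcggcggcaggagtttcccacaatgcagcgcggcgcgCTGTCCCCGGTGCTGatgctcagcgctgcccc

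SYN1, a synaptic vesicle phosphoprotein gene, had 19.1 and 12.1 normalized reads in parental cells against 309 and 291 in overexpression (log2 fold change 4.28), and 25.4% of its exon bases overlap another gene. GRIA2, an AMPA receptor subunit, had 23.6 and 16.7 against 465 and 717 (4.88). GAD2, which makes GABA, had 0 against 73.4 and 54.6, at least 21-fold higher, a call that was lost without the first overexpression library. TTC9B had 18 and 26.0 against 836 and 985 (5.34). RPH3A, a vesicle effector of RAB3, had 85.3 and 91.0 against 441 and 488 (2.39). A match of letters is a description, and binding of REST was not measured here.

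Retinoid genes were split, with 7 of 27 tested called higher and 3 lower. CYP26A1 (chr10:93073475-93077885), the enzyme that breaks down retinoic acid and a classical target of its receptors, rose from 1833 and 1896 to 53986 and 57430 normalized reads (log2 fold change 4.90, SE 0.061, adjusted p = 1.72e-11), and 25.3% of its exon bases overlap another gene. CYP26B1, its relative, rose from 12719 and 13367 to 47940 and 52810 (log2 fold change 1.95, SE 0.060). CRABP1, a cytoplasmic retinoic acid binding protein, rose from 21.3 and 21.4 to 237 and 248, where 45.9% of the exon bases overlap a neighbour. The receptor genes moved less. RARA had a log2 fold change of 0.61 and RARB, itself a classical ATRA target, of 0.21 (6330 and 6083 against 6858 and 7514 reads, SE 0.056, adjusted p = 0.00771). TGM2, a transglutaminase induced by retinoids in many cells, fell from 251539 and 266724 to 42617 and 42396 (log2 fold change -2.61, SE 0.054, adjusted p = 8.15e-11), the largest fall in reads of any gene. NEDD9, a scaffold protein of focal adhesions, fell from 2579 and 2859 to 558 and 460, and RDH10, which oxidises retinol, from 7780 and 7757 to 2326 and 1633. All cells had received the same ATRA dose, and cells without ATRA are not part of these groups.

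The letters GTTCA, any 6 bases, then GTTCA, a strict form of the response element with direct repeats spaced by 5, stood on either strand in 20 of the 35116 promoter windows (0.057%), among them those of CYP26A1 and RARB. It stood in 8 of 18788 windows of tested genes (0.0426%), in 2 of 2414 of genes called higher (0.0829%) and in 0 of 1508 of genes called lower. COL24A1 is the other gene called higher that held it (log2 fold change 5.31), and besides RARB the tested genes DNTTIP1, HROB, PHF8, PTPRA and RPS24 held it and were not called, with log2 fold changes from -0.23 to 0.26. The windows of CYP26A1 (chr10:93073743-93073878, plus strand) and RARB (chr3:25428151-25428286, plus strand) are shown with the element in capitals, because these promoters hold the same element while the log2 fold changes were 4.90 and 0.21.
CYP26A1: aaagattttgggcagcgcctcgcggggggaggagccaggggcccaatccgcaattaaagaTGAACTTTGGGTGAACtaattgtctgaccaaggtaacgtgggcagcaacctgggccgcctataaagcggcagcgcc
RARB: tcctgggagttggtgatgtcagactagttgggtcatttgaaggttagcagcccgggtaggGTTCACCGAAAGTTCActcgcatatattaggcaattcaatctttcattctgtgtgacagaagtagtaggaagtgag

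**Figure D3:**
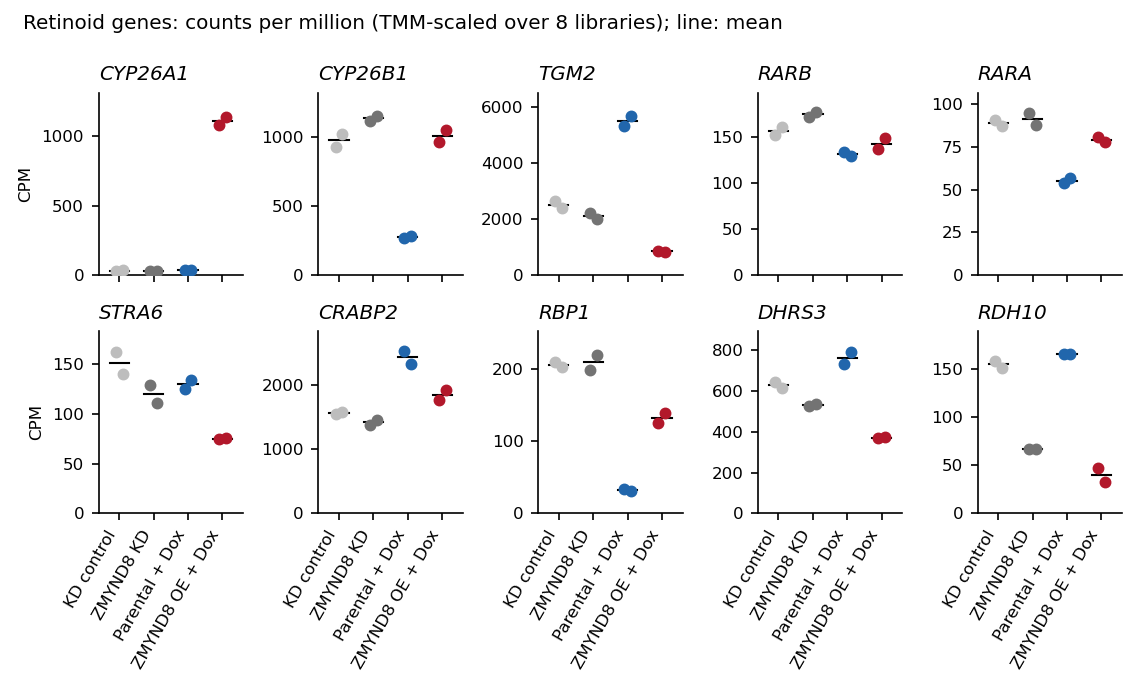
CPM, scaled with TMM over all 8 libraries (vertical axes from 0), of 10 retinoid genes in the 4 groups (horizontal axis, 2 libraries each as points, mean as a line). CYP26A1 is at 1082 CPM or more in the overexpression libraries and below 50 CPM in the other 6, whereas CYP26B1 is low in the parental libraries alone, at 269 and 285 CPM.

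Mesenchymal genes were lower in ZMYND8 overexpression. Of 34 tested mesenchymal transcription factor genes, 14 (41.2%) were called lower and 3 higher, and of 34 mesenchymal and matrix-contact markers 22 (64.7%) were lower and 1 higher, with median log2 fold changes of -0.59 and -1.27. The median of the transcription factors was -0.94 without the first overexpression library. Without the members on the long arm of chromosome 1, 12 and 19 were lower. PRRX1 (chr1:170662728-170739421, on that arm), the homeobox factor that defines the mesenchymal-like form, fell from 47139 and 45280 to 9235 and 8336 normalized reads (log2 fold change -2.39, SE 0.061, adjusted p = 3.06e-10). RUNX2, a factor of bone and mesenchyme, fell from 2799 and 2636 to 525 and 434 (-2.50), and FOSL1, an AP-1 subunit, from 1701 and 1625 to 567 and 412 (-1.75). Among markers, CD44, the hyaluronan receptor, fell from 26258 and 25133 to 4957 and 3826 (-2.55, SE 0.099, adjusted p = 5.88e-09), LUM, a small proteoglycan, from 10228 and 11264 to 1577 and 1903 (-2.63) and THBS1, a matricellular protein, from 30501 and 33293 to 6152 and 5635 (-2.44). The list did not move as a whole. TWIST1, a mesenchymal basic helix-loop-helix factor, rose from 4032 and 3960 to 9769 and 9988 (log2 fold change 1.31), PRRX2, the relative of PRRX1, from 92.0 and 86.3 to 369 and 319 (1.95), and KLF4 from 58.4 and 67.8 to 201 and 203 (1.67). ZEB1 and ZEB2, named after their values were seen, had log2 fold changes of 0.12 and 0.58.

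**Figure D4:**
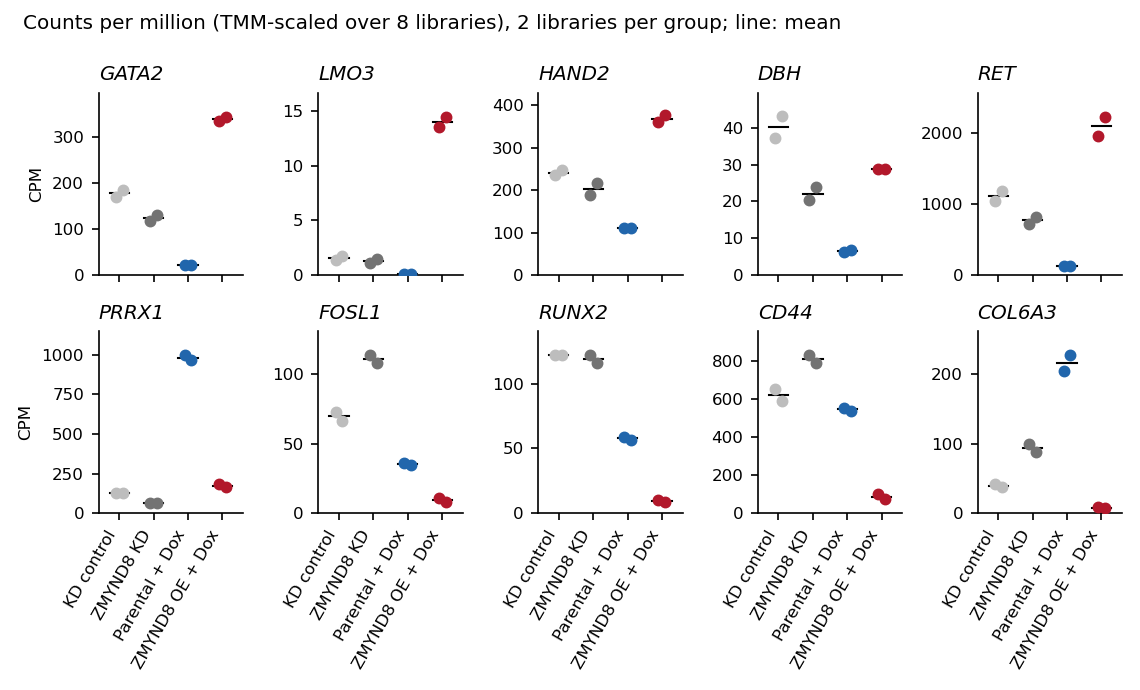
CPM, scaled with TMM over all 8 libraries (vertical axes from 0), of 5 adrenergic genes (upper row) and 5 mesenchymal genes (lower row) in the 4 groups (horizontal axis, 2 libraries each as points, mean as a line). GATA2 is at 22.4 to 22.6 CPM in parental, 170 to 184 in KD control and 333 to 343 in overexpression libraries, and PRRX1 at 965 to 997, 131, and 165 to 185 CPM.

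For some of these genes, and for several neuronal lists, KD control libraries, from cells not made to overexpress ZMYND8, were nearer to overexpression than to parental cells. PRRX1 was at 131 and 131 CPM in KD control, 997 and 965 in parental and 185 and 165 CPM in overexpression libraries, and STMN2 at 318 and 354, 15.5 and 16.7, and 233 and 254 CPM. RET lay about midway in KD control, at 1045 and 1187 CPM, between 122 and 135 in parental and 1960 and 2224 CPM in overexpression libraries. Other genes differed from this. RUNX2, FOSL1 and CD44 were higher in KD control than in parental libraries, at 122 and 122, 73.1 and 66.8, and 653 and 589 CPM, against 59.2 and 56.2, 36.0 and 34.6, and 555 and 536 CPM, and both groups were above the overexpression libraries. LMO3 was at 1.35 and 1.78 CPM in KD control, 0.119 and 0.0594 in parental and 13.5 and 14.4 CPM in overexpression libraries. GATA2, with 170 and 184 CPM in KD control, lay about midway between 22.6 and 22.4 in parental and 333 and 343 CPM in overexpression libraries. The 32 adrenergic factors summed to 1405 and 1445 CPM in parental, 2429 and 2512 in overexpression and 2044 and 2150 CPM in KD control libraries, and the 34 mesenchymal markers to 18551 and 19191, 7371 and 6892, and 9314 and 8999 CPM. The experiments differ in the labelled Dox treatment and in mitochondrial reads, which made up 0.110 to 0.168% of counts in the overexpression experiment and 2.92 to 3.41% in the knockdown experiment, so these levels are a description without a test.

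The matrix itself followed. Of 34 tested genes for fibrillar and basement membrane collagens, 15 were called lower and 7 higher. COL6A3 (chr2:237324003-237414207), a chain of microfibrillar collagen, fell from 9656 and 10647 to 450 and 362 (log2 fold change -4.64, SE 0.092, adjusted p = 7.13e-11), COL15A1 from 375 and 393 to 30.4 and 26.2 (-3.75) and COL5A2 from 11558 and 11690 to 1148 and 1227 (-3.29). The abundant fibrillar chains COL1A1 and COL3A1 were among the 8 genes with the largest falls in reads, from 181867 and 205299 to 56885 and 56657, and from 132799 and 146400 to 30611 and 36261. Against this, COL26A1 rose from 4.49 and 6.50 to 2103 and 2230 (log2 fold change 8.57, SE 0.14), and the cartilage collagen COL2A1 from 0 to 113 and 133, at least 41-fold. Integrins and laminins were called lower for 15 of 29 tested (51.7%) and higher for 4 (13.8%), against 6.84% and 11.8% of all tested genes. Without the long arm of chromosome 1, 12 were lower. ITGA2, a collagen receptor subunit, fell from 42996 and 43214 to 3835 and 3221 (-3.61, SE 0.079), and ITGA10 and LAMB3, both on the long arm of chromosome 1, had log2 fold changes of -3.30 and -3.74. ITGA1, another collagen receptor, fell from 110050 and 108293 to 21477 and 21281. LAMA1, a laminin chain of early basement membranes and one of the marker genes of the study, rose from 10.1 and 6.50 to 237 and 262 (4.92), ITGA8 from 2 raw reads in all to 216 and 198, and ITGA9 from 224 and 245 to 1851 and 1819 normalized reads.

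Contractile and protease genes were also lower. Of 29 tested smooth muscle and contractile genes, 14 were called lower, or 13 without the long arm of chromosome 1, and 1 higher. MYLK, the myosin light chain kinase, fell from 37963 and 39638 to 3641 and 3341 (log2 fold change -3.47, SE 0.061, adjusted p = 3.39e-11), MYPN, a sarcomeric protein gene, from 466 and 388 to 22.4 and 7.65 (-4.76) and ZYX, a focal adhesion protein, from 34499 and 34918 to 8315 and 7146. The member called higher was MYOCD, the coactivator of smooth muscle genes, at 0 in parental cells and 50.2 and 50.3 normalized reads in overexpression, at least 16-fold higher. That call was lost when either overexpression library was left out, which lowers the mean count that a call needs above 20. Of 46 tested proteases, inhibitors and coagulation genes, 21 (45.7%) were lower and 6 (13.0%) higher, against 6.84% and 11.8% of all tested genes. Without the long arm of chromosome 1, 19 were lower. PLAT, tissue plasminogen activator, fell from 155063 and 161586 to 22006 and 19231 (-2.94, SE 0.070), F2RL2, a thrombin receptor gene, from 3031 and 3062 to 296 and 259 (-3.45), and SERPINB2, which inhibits plasminogen activators, from 290 and 248 to 3.58 and 8.74 (-5.47). C3, the central complement gene, rose from 10.1 and 8.35 to 82.4 and 69.9, ADAMTS9 from 2425 and 2490 to 19242 and 20727, and MMP15 from 292 and 283 to 1703 and 1886.

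YAP and TAZ are coactivators that stretched, adherent cells keep in the nucleus, where they act through TEAD factors. Of 24 tested target genes, 11 (45.8%) were called lower and none higher by edgeR or DESeq2 (2 higher at an unadjusted p below 0.05), and the median log2 fold change was -0.96. Without the genes of the long arm of chromosome 1 the count was 9. MYOF, a membrane repair protein, fell from 32240 and 32665 to 6238 and 4855 (log2 fold change -2.55, SE 0.097, adjusted p = 4.73e-09). NT5E, the ectonucleotidase CD73, had a log2 fold change of -2.12, and TGFB2, which is also a TGF-beta ligand and lies on that arm, of -2.72. CCN2 and ANKRD1, the usual reporters of YAP activity, were chosen after their values were seen. CCN2, a secreted matricellular protein, fell from 10221 and 10675 to 3154 and 1871 (log2 fold change -2.05, SE 0.17, adjusted p = 2.25e-06), and ANKRD1, a cofactor found in the nucleus, from 405 and 383 to 131 and 63.4 (-2.00). YAP1 and WWTR1, the genes of YAP and TAZ and likewise chosen so, had log2 fold changes of -1.35 and -1.39 and were called lower. The letters GGAATG, the core that TEAD factors bind, stood on either strand in 14.9% of the promoter windows of genes called lower, 11.7% of those called higher, 11.7% of all windows of tested genes and 14% of all windows. For AP-1, read as TGA, any base, then TCA, the shares were 12.2% of 1508 windows of genes called lower, 5.80% of 2414 of genes called higher, 5.59% of 18788 of tested genes and 7.71% of all 35116. The windows of ANKRD1 (chr10:90921038-90921337, minus strand), with AP-1 and TEAD letters, and of CCN2 (chr6:131951323-131951622, minus strand), with TEAD letters, are shown whole, with these letters in capitals.
ANKRD1: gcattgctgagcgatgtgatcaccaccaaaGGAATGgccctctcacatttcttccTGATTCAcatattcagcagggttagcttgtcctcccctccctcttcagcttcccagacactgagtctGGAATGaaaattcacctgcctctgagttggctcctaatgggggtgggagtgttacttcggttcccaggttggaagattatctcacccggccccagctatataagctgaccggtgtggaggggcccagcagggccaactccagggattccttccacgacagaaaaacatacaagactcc
CCN2: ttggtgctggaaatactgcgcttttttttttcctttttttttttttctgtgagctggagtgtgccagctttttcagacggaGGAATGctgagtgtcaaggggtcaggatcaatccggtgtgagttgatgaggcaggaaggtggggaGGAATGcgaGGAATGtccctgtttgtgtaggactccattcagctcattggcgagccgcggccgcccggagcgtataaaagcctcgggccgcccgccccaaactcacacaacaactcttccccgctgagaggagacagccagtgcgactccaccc

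AP-1 subunits and immediate-early genes did not share a direction, with 7 of 34 tested called higher and 4 lower. Without the long arm of chromosome 1 these counts were 6 and 3. ARC, an activity-induced gene of neurons, rose from 11.2 and 5.57 to 335 and 310 (log2 fold change 5.29), ATF3, on the long arm of chromosome 1, from 146 and 124 to 697 and 765 (2.44), and EGR3 from 21.3 and 34.3 to 133 and 122 (2.17). PHLDA1 fell from 19959 and 19463 to 4912 and 4195 (-2.11), and FOSL1 and NR4A3 were lower by the same rule, NR4A3 with -1.19 and, on the scale of total counts alone, -0.94.

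Ligands and receptors that guide cells changed in opposite directions within each family. Of 46 axon guidance genes, 18 were called higher and 10 lower, or 9 lower without the long arm of chromosome 1. EPHA3 was at 0 in parental cells and at 105 and 97.2 in overexpression, at least 33-fold higher. EPHA7 had 1 raw read in each parental library against 299 and 307, and EPHA5 2 reads in all against 113 and 103. EPHA2, the ephrin receptor of epithelial and mesenchymal cells, fell from 20858 and 22122 to 5182 and 3830 (log2 fold change -2.25), NRP2, a semaphorin receptor, from 24725 and 24933 to 3172 and 3049 (-3.00, SE 0.052, adjusted p = 3.27e-11), and SEMA3C from 17348 and 16923 to 4822 and 4327 (-1.90). Among 44 tested WNT pathway genes, 10 were higher and 6 lower. WNT6 rose from 11.2 and 10.2 to 1212 and 1378 (6.90, SE 0.16), the agonist gene RSPO4 from 4.49 and 0.928 to 173 and 172 and the antagonist gene SFRP4 from 7.86 and 3.71 to 266 and 235, whereas WNT2B (-2.58, with 21.5% of its exon bases shared), WNT7B (-2.10) and WNT5B (-1.71) were lower. Among 47 TGF-beta and BMP genes, 8 were higher and 13 lower, or 7 and 12 without the long arm of chromosome 1. INHBA, the activin A subunit gene, fell from 11336 and 11564 to 965 and 885 (-3.63, SE 0.060, adjusted p = 2.98e-11), and TGFB2, on the long arm of chromosome 1 and overlapping another gene in 24.8% of its exon bases, from 486 and 406 to 75.2 and 59.0 (-2.72). TGFBR3, a coreceptor gene, and CHRDL1, a BMP antagonist gene, were higher, with log2 fold changes of 5.46 and 3.37. Of 23 tested Notch genes, 6 were higher, among them the effector genes HES4 (log2 fold change 5.96) and NRARP (2.21) and the ligand-like DLK1 (5.41), and 2 were lower, the coactivator MAML2 (-2.62) and LFNG (-1.05). The LFNG call was lost with total counts alone (-0.80), with upper quartile normalization (-0.98) and without the second overexpression library (-0.81).

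Cholesterol and fatty acid synthesis genes were called lower for 14 of 33 (42.4%) and higher for none by edgeR or DESeq2 (1 higher at an unadjusted p below 0.05). Without the long arm of chromosome 1, 12 were lower. The median log2 fold change of -0.69 remained negative under every scaling, at -0.43 with total counts alone. FASN, fatty acid synthase, fell from 93850 and 107083 to 30514 and 30526 (log2 fold change -1.72, SE 0.065, adjusted p = 4.52e-09), and SCD, the stearoyl-CoA desaturase, from 127148 and 131804 to 43511 and 45235 (-1.54). Hypoxia and glycolysis genes were lower for 8 of 40 and higher for 3. PFKFB3, which drives glycolysis, fell from 24584 and 25728 to 5824 and 5740 (-2.12), CA12 from 2868 and 2880 to 985 and 878, and EPAS1 from 27580 and 27971 to 9661 and 9156, while EGLN3, ENO2 and ALDOC rose, with log2 fold changes of 1.90, 1.26 and 1.16.

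Few cell cycle genes were called. Of 58, 4 were called higher and 3 lower, shares of 6.90% and 5.17% that lie below the 11.8% and 6.84% of all genes. Without the threshold on fold change, 14 of the 58 were higher and 28 lower. Their median log2 fold change was -0.12, or 0.14 with total counts alone. CCND2, a D-type cyclin, went from 1 read in all to 490 and 357 raw reads. CDKN2B, an inhibitor of CDK4 and CDK6, fell from 2078 and 2041 to 210 and 147 normalized reads (log2 fold change -3.51, SE 0.12, adjusted p = 2.05e-09), and CDKN1A, the p21 gene, from 36520 and 37683 to 17243 and 16405 (-1.14, or -0.89 with total counts alone). CDKN1C, a further inhibitor gene, rose from 19.1 and 13.0 to 55.5 and 57.9, and 86.2% of its 31-base words also lie on alternate contigs. E2F2 was higher (1.11) and E2F7 lower (-1.09, or -0.84 with total counts alone). Of 37 tested p53 target and apoptosis genes, 10 were lower, or 9 without the long arm of chromosome 1. Among them were CASP8, the initiator caspase that many neuroblastomas lack, from 1473 and 1491 to 310 and 327 (-2.22), PLK2 (-1.91) and PLK3 (-1.59). BMF alone was higher (log2 fold change 1.15). Among 76 cytosolic ribosomal protein genes and 62 nuclear-encoded oxidative phosphorylation genes none was called by the edgeR test. At the adjusted p threshold alone, 49 and 33 of them were higher and 0 and 8 lower, with medians of 0.19 and 0.18. At an unadjusted p below 0.05 the edgeR fit gave 51 higher and 2 lower ribosomal protein genes, and 34 higher and 8 lower oxidative phosphorylation genes, and DESeq2 called 0 in each list. RPLP0 had 66722 and 68304 against 67705 and 70755 reads (0.04), RPL4 48688 and 50103 against 55253 and 57638 (0.19), and ATP5F1B, the beta subunit of ATP synthase, 23086 and 23846 against 34929 and 35578 (0.59).

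Interferon-stimulated and inflammatory genes were called in both directions. Of 40 tested interferon-stimulated genes, 9 (22.5%) were lower and 6 (15.0%) higher. Over all tested genes the shares were 6.84% and 11.8%, so the higher share was near that of all genes. IFIT3 fell from 3516 and 3483 to 793 and 848 (log2 fold change -2.09, SE 0.058, adjusted p = 5.18e-10) and IFIT2 from 2812 and 2915 to 690 and 858 (-1.89), while OAS2, an RNA sensor of the same response, rose from 26.9 and 30.6 to 77.9 and 175 (2.11, SE 0.37), OAS1 from 208 and 240 to 579 and 888 and BST2 from 102 and 161 to 274 and 499. The 2 overexpression libraries lay further apart for these OAS genes and BST2 than for most others. Of 28 tested cytokine and NF-kappaB genes, 10 (35.7%) were lower and 4 (14.3%) higher, the latter again near the share of all genes. Without the long arm of chromosome 1, 9 were lower. LIF fell from 2848 and 3178 to 407 and 340 (-3.01), CXCL8 from 1351 and 1466 to 227 and 139 (-2.92) and CSF1 from 10725 and 11077 to 2140 and 2023 (-2.39). CXCL12, TNFAIP6 and TNFSF9 were higher, with log2 fold changes of 1.47, 2.55 and 1.38.

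Over all protein-coding genes with a mean above 1000 and groups that did not overlap, the largest rises were in AJAP1 (4.49 and 0 to 2500 and 2714 normalized reads, log2 fold change 10.24, SE 0.23), an adhesion-associated membrane protein gene, COL26A1, FUT9, CNR1, CADM3, NELL2, PPARGC1A, FEV, ASIC4, CPLX1, ZMYND8 and NTRK2. CNR1, the cannabinoid receptor of neurons, rose from 8.98 and 7.43 to 2126 and 2296 (8.06). FUT9, a fucosyltransferase that makes the Lewis X glycan, rose from 6.73 and 6.50 to 2329 and 2723 (8.55). FEV, a transcription factor of serotonin neurons, rose from 22.4 and 35.3 to 2062 and 2054 (6.12), and PPARGC1A, the coactivator of mitochondrial biogenesis, from 37.0 and 31.6 to 2594 and 2892 (6.33). CADM3, G0S2 and LAMB3 lie on the long arm of chromosome 1, and CADM3 shares 36.8% of its exon bases. The largest falls were in SUCNR1 (chr3:151873643-151884619), a succinate receptor gene, from 4150 and 4071 to 60.9 and 53.5 (-6.15, SE 0.083, adjusted p = 1.72e-11), SULT1B1, SLC5A7, COL6A3, LAMB3, INHBA, ITGA2, CDKN2B, MYLK, F2RL2, G0S2 and MLPH. SLC5A7, the choline transporter of cholinergic neurons, fell from 3839 and 4194 to 162 and 143 (-4.71), and the sulfotransferase gene SULT1B1, of whose 31-base words 21.3% occur in transcripts of other genes, from 4564 and 4645 to 198 and 141. In number of reads, ZMYND8 and RET rose most, with VGF, CYP26A1, CYP26B1, EEF2 and C7 also among the 8 largest rises. The falls were led by TGM2, PLAT, COL1A1, COL3A1, ACTB, ITGA1, TMSB4X and MALAT1.

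Some genes were seen in the overexpression libraries alone. At 3 reads or fewer in both parental libraries and 50 or more in both overexpression libraries there were 173 genes, against 5 genes in the reverse direction. Of the 173, 100 had more than 3 reads in some library of the knockdown experiment, and 7 had 50 or more in both KD control libraries. The other 73, 69 protein-coding genes and 4 lncRNA genes, had 3 reads or fewer in all 6 other libraries. By raw reads, AFF2, a transcription elongation gene on the X chromosome, led them with 457 and 324 in overexpression, a ratio of 756 to the single parental read with an exact 95% counting interval of 135 to 29917. It was followed by genes named after their values were seen. GRM3, a metabotropic glutamate receptor, had 403 and 306 reads, LRP2, the endocytic receptor megalin, 393 and 308 (at least 114-fold higher) and GRIN2A, an NMDA receptor subunit, 349 and 328 (at least 111-fold). ETNPPL, an enzyme of phosphoethanolamine breakdown, was at least 85-fold higher, and the receptor subunit genes GABRG1, GABRA2 and GABRB2 at least 84-fold, 59-fold and 54-fold. GATA6, a factor of heart and endoderm, was at least 66-fold higher, so that neuronal genes did not fill the list. SMOC1 (chr14:69854131-70032366), a secreted calcium-binding matrix protein gene, had 3 and 1 raw reads in parental, 1653 and 2109 in overexpression and 2 and 3 in KD control libraries, and 4 reads in a ZMYND8 KD library keep it out of the 73. In the reverse direction MMP13, the collagenase 3 gene, had 86 and 84 raw reads in parental against 3 and 1, ANXA10 78 and 74 against 3 and 0, and CHRNA9 60 and 59 against 2 and 1, and the lncRNA genes NTRAS, on the long arm of chromosome 1, and ENSG00000222032 completed the 5.

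**Figure D5:**
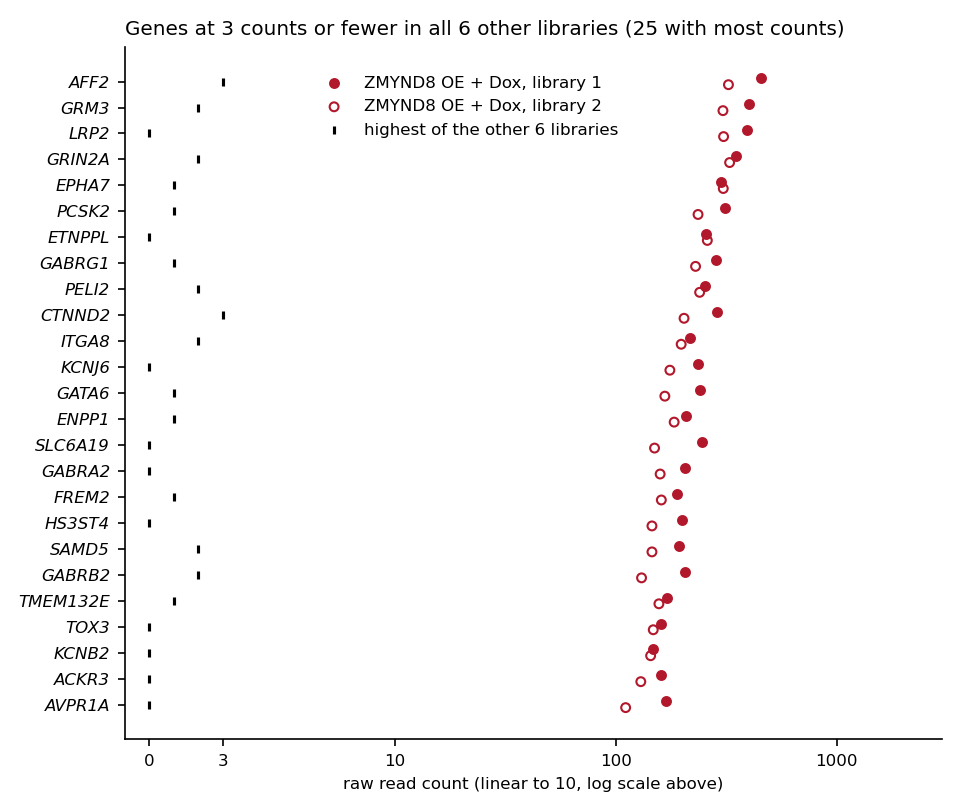
Raw reads per library (horizontal axis, linear to 10 and on a log scale above) of the 25 genes with the most normalized reads among the 73 that had 3 reads or fewer in all libraries outside the overexpression group. Filled and open circles are the 2 overexpression libraries, from 457 and 324 reads for AFF2 to 169 and 111 for AVPR1A, and black ticks mark the highest of the other 6 libraries.

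The marker genes chosen by the study were mixed. Of 13, 10 were tested and 3 were called, all higher. DRD2, the dopamine receptor gene, rose from 7.86 and 5.57 to 220 and 255 (log2 fold change 5.14, SE 0.26, adjusted p = 4.44e-08), LAMA1 as given above, and MAP2, a dendritic microtubule protein gene, from 3746 and 3707 to 7995 and 8711 (1.16). SCN2A, a sodium channel gene, had 6340 and 6114 against 3488 and 3716 (-0.79, adjusted p = 3.54e-07), NES, the nestin gene on the long arm of chromosome 1, 27258 and 27297 against 17192 and 17762 (-0.64), and TUBB3 157 and 154 against 225 and 279 (0.69), with 35.8% of its exon bases shared. MAPT had 0 and 8.35 normalized reads against 16.1 and 9.83 (1.52, SE 0.79, adjusted p = 0.124), and 93.8% of the 31-base words in its transcripts also lie on alternate contigs of GRCh38, where reads that match several places may go uncounted. REST, also a marker gene of the study, was lower at the adjusted p threshold but not by 2-fold, as given above. SOX2 (-0.43, adjusted p = 0.0594) and GFAP (-0.83, adjusted p = 0.275) did not pass the threshold, and NEUROG1, POU5F1 and NANOG had too few reads to be tested. ZMYND8-associated chromatin factors were little changed, with 2 of 36 called, RCOR2 and JARID2 (1074 and 1077 against 2766 and 2673, log2 fold change 1.34), both higher.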

How the data were processed

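RNA-seq libraries were made from SK-N-SH total RNA after removal of ribosomal RNA, 8 in all, and the 4 of the ZMYND8 overexpression experiment were compared. The authors trimmed reads with Trim_Galore, aligned them to GRCh38 with Hisat2 and deposited raw counts per gene from featureCounts. The strand setting and versions were not given in the sources used here. Gene symbols came from GENCODE release 44 by gene ID, for 60418 of 60659 genes; 3 lines of a split gene were left out. Counts were fitted with edgeR 4.0.16 (quasi-likelihood test, TMM factors, filterByExpr, Benjamini-Hochberg adjustment) under R 4.3.3, without a replicate block. A call needed an adjusted p under 0.05, a change of 2-fold or more and normalized counts averaging over 20. DESeq2 1.42.0, other scalings, filters and left-out libraries served as alternatives. The fits were tested on simulated data. Fold bounds use a floor of 3 counts per library, and intervals cover counting error only.

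The members and gene lists were chosen with earlier results of these data known. Named genes were ZMYND8 and the study's markers; in each list, up to 3 called members at either end of the log2 fold change; the 12 largest changes in each direction among called protein-coding genes with a mean above 1000 and groups that did not overlap; the 8 largest rises and falls in reads; the 6 genes with most counts in each direction that had 3 counts or fewer in the other group; and the most abundant members of lists without a call. Genes outside this rule, among them HAND2, ISL1, PHOX2A, GATA3, DBH, TH, GAP43, STMN2, RARA, FN1, VIM and SOX10, were chosen after their values were seen. Same-numbered libraries share only a number. Promoter sequences were RefSeq windows of GRCh38.p14. Some genes that this rule names are not reported here.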

Additional observations from a re-analysis of the deposited data

How the results depend on the processing

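Leaving out 1 library at a time gave 2187 to 2674 genes called higher and 1373 to 1524 called lower. With the mean threshold raised to 100, 1300 genes were higher, and without a threshold on fold change 5550 were higher and 5782 lower. Same-numbered libraries of the groups correlated at 0.0194 in their deviations over 17727 genes, so the numbers are not taken as pairs, and the fit with the replicate block gave 2459 higher and 1427 lower genes. The other scalings, DESeq2, the fit of all 8 libraries, no filter on low counts and the gene length trend left both counts within 1.5 times. So did 2 alternatives chosen after seeing the data, the removal of the long arm of chromosome 1 and of length and GC trends together. Total counts alone gave 3141 higher and 1011 lower genes, and moved 39 of 41 list medians beyond the spread of replicates. Over all alternatives, 163 list medians moved beyond that spread and 411 stayed within it. Without the total counts setting, the median of neuronal RNA-binding genes ranged from 1.40 to 2.39. That of retinoid genes ranged from 0.43 to 1.30, and that of WNT genes from -0.07 to 0.70. Of 3192 values of 228 named genes over the alternatives, 3157 kept direction and call, 34 lost the call, 1 gained it with total counts alone and 0 turned direction. Leaving out a library of the higher group also lowers a gene's mean count, which a call needs above 20. PNMT, PCSK1, GRP, MYOCD, POU3F1, GAD2, SLC32A1, EMCN and VWF have few reads. They lost calls on leaving out 1 library while their log2 fold changes stayed far above 2-fold. With 2 libraries per group, their number limits the precision. The causes of these differences were not tested.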

Other observations

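Stress-response genes under the ER stress sensors and ATF4 were called lower for 5 of 37 (13.5%) and higher for 3 (8.11%). Over all tested genes the shares were 6.84% and 11.8%. The list had a median log2 fold change of -0.54. SLC7A11, the cystine importer, fell from 2229 and 2172 to 487 and 377 normalized reads (log2 fold change -2.34), SLC7A5, a transporter of large neutral amino acids, from 13040 and 13829 to 6356 and 4509 (-1.30), and VEGFA was lower (-1.24, or -0.99 with total counts alone). HSPA5, the main chaperone of the ER, chosen after its values were seen, fell from 37180 and 38808 to 17396 and 16769 (-1.15). STC2, a secreted glycoprotein gene, rose from 107 and 84.5 to 639 and 681 (2.80) and VLDLR, a lipoprotein receptor gene, from 1488 and 1508 to 3842 and 4401 (1.46). Of the 13 mitochondrially encoded messenger RNAs, MT-ND6 alone was called lower (1032 and 1861 against 588 and 771, log2 fold change -1.10), a call lost without the second parental library (-0.61), without the first overexpression library (-0.91) and with total counts alone (-0.84).

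Genes of cartilage, bone and mesenchymal stem cells were called lower for 6 of 10 tested and higher for 3. SPP1, the osteopontin gene, fell from 1045 and 986 to 96.7 and 92.9 (log2 fold change -3.42), ASPN from 523 and 488 to 21.5 and 41.5 (-4.03) and BGN, the biglycan gene, from 1949 and 1853 to 511 and 568 (-1.82). COMP, a cartilage matrix protein gene, rose from 377 and 357 to 1906 and 1855 (2.36), and ALPL (1.73) and SOX6 (1.47) were higher too. Of 11 tested Schwann cell and glial markers, 4 were higher and 1 lower. NGFR, the low-affinity neurotrophin receptor gene, whose exon bases overlap another gene at 27.2%, had a log2 fold change of 4.31, S100B rose from 13.5 and 10.2 to 94.9 and 114 (3.14) and POU3F1 from 0 and 1.86 to 40.3 and 56.8, a call lost when either overexpression library was left out. MBP, the myelin basic protein gene, fell from 955 and 1032 to 323 and 326 (-1.62), and SOX10, the defining glial factor, had at most 1 read in each of these 4 libraries. Of the endothelial markers, KDR (3.84) and CLDN5 (5.35) were higher, and PECAM1 (-3.31), VWF (-3.50) and EMCN (-3.69) were lower, with the calls of VWF and EMCN lost when either parental library was left out.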
